A study of Mus musculus with 367 samples.

Results

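The 10 genes Eln, Fbn1, Fbn2, Fbln1, Fbln2, Fbln5, Mfap2, Mfap4, Mfap5 and Emilin1 encode the elastin core of elastic fibres, the fibrillin microfibrils around it and the proteins that join core and microfibril. They were taken by symbol from the 50600 genes of the deposited tables, and each of the 10 symbols matched 1 gene. Cells came from full-thickness skin wounds of Sm22-Cre;tdTomato mice on a mixed background, wounded on the back with a square of 1.5 cm a side. The sample labels give an age of 3 to 8 weeks. The paper states a narrower range with the same upper limit, and mice of both sexes. For each of days 12, 15 and 21 post-wounding (PW) wound tissue from 2 to 3 animals was combined, and viable cells with high tdTomato were sorted and captured singly in a C1 chip. There were 3 captures on day 12, 2 on day 15 and 2 on day 21, with 367 cells in all. Every mouse carried both alleles and was wounded, so the day is the contrast between groups. In this cross Cre is driven by the promoter of Tagln, whose product is SM22, and tdTomato stays on in any cell in which Cre was active once, so the sort holds cells by their history and not by their present Tagln level. It is not stated whether captures of a day came from different mice, so p-values measure the spread between captures, which may be technical.

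Elastic fibres give skin its recoil. Fibrillins assemble outside the cell into microfibrils, tropoelastin is laid onto them with the help of fibulins, and lysyl oxidases then crosslink it into elastin. Microfibrils also form without elastin, and they hold latent TGF-beta near the cell surface. In skin the fibres are made by fibroblasts, while mural cells, the pericytes and smooth muscle cells of vessels, make those of the vessel wall.

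The study's limits on reads, on genes (11000) and on the mitochondrial share (15%) left 292 of 367 cells. FPKM scales the fragments of a gene to its transcript length and to the total of the cell, so levels of different genes are given per length. Whether long and short transcripts were covered and detected alike was not tested. Kept cells held 171160 to 8071030 estimated fragments, and the median of a capture ran from 959463 to 2376430. Cells were divided by 3 marker genes, none of which encodes an elastic fibre protein. Matrix-like cells had Col1a1 of at least 1000 FPKM, Rgs5 below 100 and Tyrobp below 50. Mural-like cells had Rgs5 of at least 500 and Tyrobp below 50, and myeloid-like cells had Tyrobp of at least 500. This gave 198 matrix-like, 57 mural-like and 26 myeloid-like cells, while 11 cells met no rule. Markers that the rules did not use were set against these names. Their median was above 0 for 7 of 7 matrix fibroblast markers in matrix-like cells, for 6 of 7 mural markers in mural-like cells and for 8 of 8 myeloid markers in myeloid-like cells. With Col1a1 counted, 6 of 8 matrix fibroblast markers passed in mural-like and in myeloid-like cells too, so that count does not tell the kinds apart. With Rgs5 and Tyrobp counted, 1 of 8 mural markers passed in matrix-like and 2 of 8 in myeloid-like cells. Of 9 myeloid markers, 0 passed in matrix-like and in mural-like cells. In matrix-like cells the 5 endothelial markers summed to 0.125 to 0.390 FPKM per capture, with Cldn5 and Kdr at 0, and the 4 keratinocyte markers to 0.291 to 15.2 FPKM, mostly Krt10, with Krt5 and Epcam at 0. Mural-like cells still held 6114 to 20905 FPKM of summed matrix fibroblast markers per capture, against 24582 to 44955 in matrix-like cells.

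Sequence upstream of the start of transcription was at hand for 6 of the 10 genes. The windows of Fbln1, Fbln5 and Mfap2 are shown because no annotated exon lies in them, they lie outside the annotated gene, and each of these genes was called lower in at least 1 of the other cell kinds, as given with their values. A further Fbln5 window of a start inside the gene, also free of exons and with CAGAC 2 times on the plus strand, is not shown. Each is the strand of the gene, read 5′ to 3′, of RefSeq on GRCm38.p6, and lies before a RefSeq start of transcription. The Fbln1 window is chr15:85205749-85205948 on the plus strand, the Fbln5 window is chr12:101819120-101819319 on the minus strand, and the Mfap2 window is chr4:141010224-141010417 on the plus strand. Capitals mark matches, on either strand, to any of the 5 motifs spelled out after the sequences.
Fbln1: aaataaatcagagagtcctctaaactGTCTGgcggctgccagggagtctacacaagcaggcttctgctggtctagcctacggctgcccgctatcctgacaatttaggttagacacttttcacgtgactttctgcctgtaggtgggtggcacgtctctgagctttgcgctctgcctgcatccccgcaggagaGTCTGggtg
Fbln5: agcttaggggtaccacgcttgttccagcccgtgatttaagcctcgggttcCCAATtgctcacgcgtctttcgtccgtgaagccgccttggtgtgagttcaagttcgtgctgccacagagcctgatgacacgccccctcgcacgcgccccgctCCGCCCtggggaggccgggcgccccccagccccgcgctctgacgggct
Mfap2: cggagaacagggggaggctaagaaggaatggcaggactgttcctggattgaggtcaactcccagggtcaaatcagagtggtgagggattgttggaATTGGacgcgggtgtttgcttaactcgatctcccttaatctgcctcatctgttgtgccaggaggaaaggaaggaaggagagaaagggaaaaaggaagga
The Fbln1 window holds CAGAC, the core of a Smad-binding element, 2 times on the minus strand, and 35.5% of 32851 mouse windows of 200 bases hold it at least once. The Fbln5 window holds CCAAT on the plus strand and GGGCGG, the core of an Sp1 box, on the minus strand. CCAAT lies in 29.3% and GGGCGG in 31.05% of all windows. The Mfap2 window holds CCAAT on the minus strand and was cut to 194 bases, since an annotated exon held the rest. Further windows of Fbln1 and Mfap2, which annotated exons overlap, both hold GGGCGG, with CAGAC also in that of Fbln1, and are not shown. None of the 3 windows shown holds TATAAA, found in 9.96% of windows, or TGANTCA, the AP-1 site, found in 5.48%. These matches are a description of letters and not of bound factors.

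In matrix-like cells most elastic fibre genes were abundant and widely detected, with Eln as the exception. A matrix-like cell had a median of 9 of the 10 genes with a value above 0, and 40 of 198 cells had all 10. Together the genes took 0.401% to 0.724% of the FPKM of matrix-like cells in the 7 captures. Mfap2 alone gave 38.7% to 54.2% of their sum.

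Mfap2 (chr4:141010418-141015984) encodes the glycoprotein MAGP-1, which decorates fibrillin microfibrils, and was the most abundant of the 10. Its capture means ran from 1207 to 2625 FPKM with a median of 1949, and 197 of 198 matrix-like cells had it. Mfap2 was above the next gene, Mfap5, in 7 of 7 captures, by 1.65 ± 0.74 on the scale of log2(mean FPKM + 1) (SD, n = 7). Mfap5 (chr6:122505845-122529290), which encodes the related MAGP-2, ran from 371 to 1230 FPKM with a median of 573. Mfap4 (chr11:61485431-61488900), whose product binds both tropoelastin and fibrillin, ran from 304 to 1045 FPKM with a median of 603. Fbln2 (chr6:91212455-91272540), a fibulin of elastic fibres and basement membranes, ran from 344 to 1192 FPKM with a median of 639. The levels of Mfap5, Fbln2 and Mfap4 did not differ beyond their spread, since Mfap5 exceeded Fbln2 in 3 of 7 captures and Fbln2 exceeded Mfap4 in 3 of 7.

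A lower tier held the remaining fibulins, the fibrillins and Emilin1. Fbln5 (chr12:101746565-101819055), which guides tropoelastin onto microfibrils, ran from 41.8 to 247 FPKM with a median of 94.4. Fbn1 (chr2:125300594-125507993) encodes the main fibrillin of adult microfibrils and ran from 64.1 to 126 FPKM with a median of 81.5. Emilin1 (chr5:30913402-30921277), found at the border of elastin and microfibril, ran from 54.2 to 158 FPKM with a median of 69.5. Fbln1 (chr15:85205949-85286535), a fibulin of the elastin core, ran from 46.2 to 86.9 FPKM with a median of 62.3. No step between neighbours among these 4 genes held in more than 5 of 7 captures. Fbn2, the fibrillin best known from development, lies on chromosome 18 and ran from 17.5 to 47.4 FPKM with a median of 24.7, below Fbln1 in 7 of 7 captures. Mfap4 was above Fbln5 in 7 of 7 captures, by 2.36 ± 0.71 in log2 (SD, n = 7), which separates the upper from the lower tier.

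Eln (chr5:134702593-134747323), which encodes tropoelastin, had the lowest mean log2 level over captures and the widest spread, and Fbn2 exceeded it in 5 of 7 captures. Its capture means were 60.9, 1.18 and 14.8 FPKM on day 12, 10.6 and 6.73 on day 15, and 15.4 and 53.3 on day 21. Only 74 of 198 matrix-like cells (37.4%, exact 95% binomial interval 30.6 to 44.5) had a value above 0, and 11 cells reached 100 FPKM. The 5 highest cells held 53.8% of all Eln FPKM, and 1 cell of the first day 12 capture had 1592 FPKM. The second day 21 capture held 7 of the 11 cells at 100 FPKM or more, and Eln was above 0 in 76.5% of its matrix-like cells, against 9.09% to 44% in the other captures. That capture also had the highest median depth of matrix-like cells, at 2318490 fragments, while the first day 21 capture had 2211470 fragments and Eln in 38.9% of cells. The part of depth in the Eln share was not tested.

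Detection and level differed in other genes as well. Fbn1 and Fbln2 had values above 0 in 198 of 198 matrix-like cells. Emilin1 was above 0 in 178 cells, but its median over cells was 4.41 FPKM with a mean of 88.6, and 39 cells at 100 FPKM or more stood beside many cells at low values. Fbln1 had the same shape, with a median of 10.3, a mean of 63.95 and 39 cells at 100 FPKM or more. Mfap5 was above 0 in 146 of 198 cells (73.7%, interval 67.03 to 79.7), while its median over all cells was 339 FPKM, so cells either lacked it or held much of it. At a limit of 10 FPKM in place of 0, Emilin1 was counted in 44.9% of matrix-like cells and Fbln1 in 50.5%, while Mfap5 stayed at 69.7% and Mfap2 at 99.0%. Binomial intervals cover counting error only, and cells of a capture are not independent replicates.

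**Figure D1:**
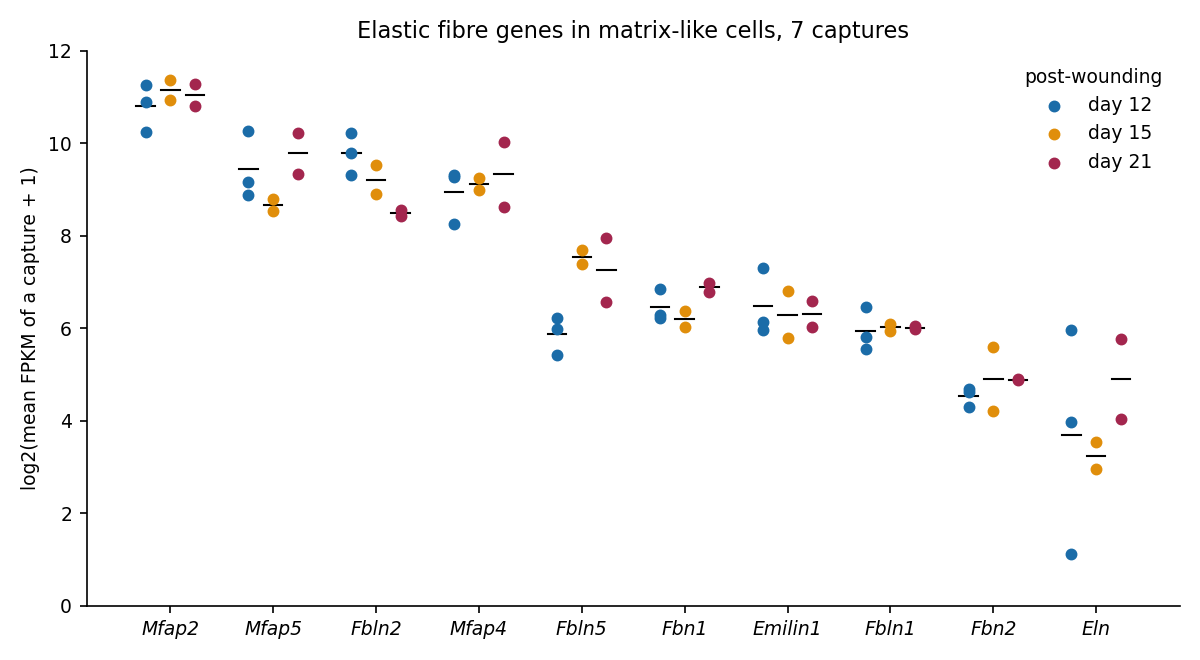
Capture means of the 10 genes in matrix-like cells on the y axis, as log2(mean FPKM + 1), for each gene on the x axis. Each point is 1 capture, coloured by day (3 on day 12, 2 on day 15, 2 on day 21), and lines are day means. Mfap2 lies highest, Eln spreads widest and reaches the lowest values, the day 21 points of Fbln2 lie below those of both earlier days, and the day 12 points of Fbln5 lie below those of both later days.

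The first comparison asked whether matrix-like cells changed their elastic fibre genes as the wound aged. Fbln2 had its highest means on day 12 and its lowest on day 21, Fbln5 was higher on both later days, and Mfap5 was higher on day 21 than on day 15, but none of the 10 genes passed the test across all genes. The test was limma on log2(mean FPKM + 1) of the 7 captures, two-sided, with Benjamini-Hochberg adjustment over 13552 genes. It called 0 of 10 between days 12 and 15, against 0% of all genes, 0 of 10 between days 12 and 21, against 0.00738%, and 0 of 10 between days 15 and 21, against 0%. At an unadjusted p below 0.05 there were 1, 2 and 1 of the 10 genes, against 5.84%, 7.14% and 5.5% of all genes. Over the 10 genes the median difference was -0.05, 0.35 and 0.01 in log2, beside -0.10, -0.19 and -0.05 over all genes tested.

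Fbln2 means were 1192, 890 and 639 FPKM in the day 12 captures, 734 and 475 on day 15, and 344 and 376 on day 21. Every day 21 capture was below every capture of the earlier days, while days 12 and 15 overlapped. Day 21 minus day 12 was -1.29 in log2 (SE 0.34, unadjusted p = 0.0035, adjusted p = 0.477 by limma). Medians over single cells were lowest on day 21 as well, with 1063, 864 and 736 FPKM on day 12, 584 and 395 on day 15, and 216 and 359 on day 21. The gene was above 0 in every matrix-like cell of all 7 captures. Cells at 100 FPKM or more numbered 71 of 74 on day 12, 58 of 72 on day 15 and 42 of 52 on day 21.

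Fbln5 means were 62.5, 41.8 and 73.04 FPKM on day 12, 204 and 167 on day 15, and 94.4 and 247 on day 21. The highest day 12 capture was below the lowest later one. Day 15 minus day 12 was 1.66 in log2 (SE 0.50, unadjusted p = 0.0070, adjusted p = 0.685 by limma). Day 21 minus day 12 was 1.39 (SE 0.50, unadjusted p = 0.018, adjusted p = 0.613 by limma). The share of cells with Fbln5 ran from 77.4% to 88.2% on day 12 and from 88.2% to 94.4% later. Cells at 100 FPKM or more numbered 10, 4 and 4 in the day 12 captures, of 31, 26 and 17, and 28 of 50, 14 of 22, 7 of 18 and 20 of 34 in the later ones. Against day 12, Fbln2 and Fbln5, which belong to one protein family, differed in opposite directions on both later days, while from day 15 to day 21 both differences were below 0 (-0.71 and -0.27). The difference between the 2 genes was not tested.

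Mfap5 means were 573, 473 and 1230 FPKM on day 12, 371 and 444 on day 15, and 645 and 1199 on day 21. The day 15 captures were the lowest, and day 21 minus day 15 was 1.11 in log2 (SE 0.47, unadjusted p = 0.039, adjusted p = 0.873 by limma). Between day 12 and day 21 the Mfap5 ranges overlapped. The captures of 2 days did not overlap for 2 of the 10 genes between days 12 and 15 (Fbln5 and Mfap5), for 3 between days 12 and 21 (Fbln2, Fbln5 and Fbn2) and for 4 between days 15 and 21 (Eln, Fbn1, Fbln2 and Mfap5). With so few captures that happened for 21.8%, 22.3% and 29.7% of all genes tested. The remaining genes moved little against their error. Fbln1, the steadiest, differed by 0.07 between days 12 and 21 (95% interval -0.96 to 1.11), and Mfap2 by 0.25 (-0.46 to 0.96).

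Without each capture in turn the count stayed at 0 of 10 in all 3 day comparisons. The direction of Fbln2 and Fbln5 against day 12 held in each of these fits, while that of Fbln5 between days 15 and 21 turned without the first day 21 capture, from -0.27 to 0.42. Without the second day 21 capture, the difference of Fbln5 between days 12 and 21 was 0.70 in place of 1.39.

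**Figure D2:**
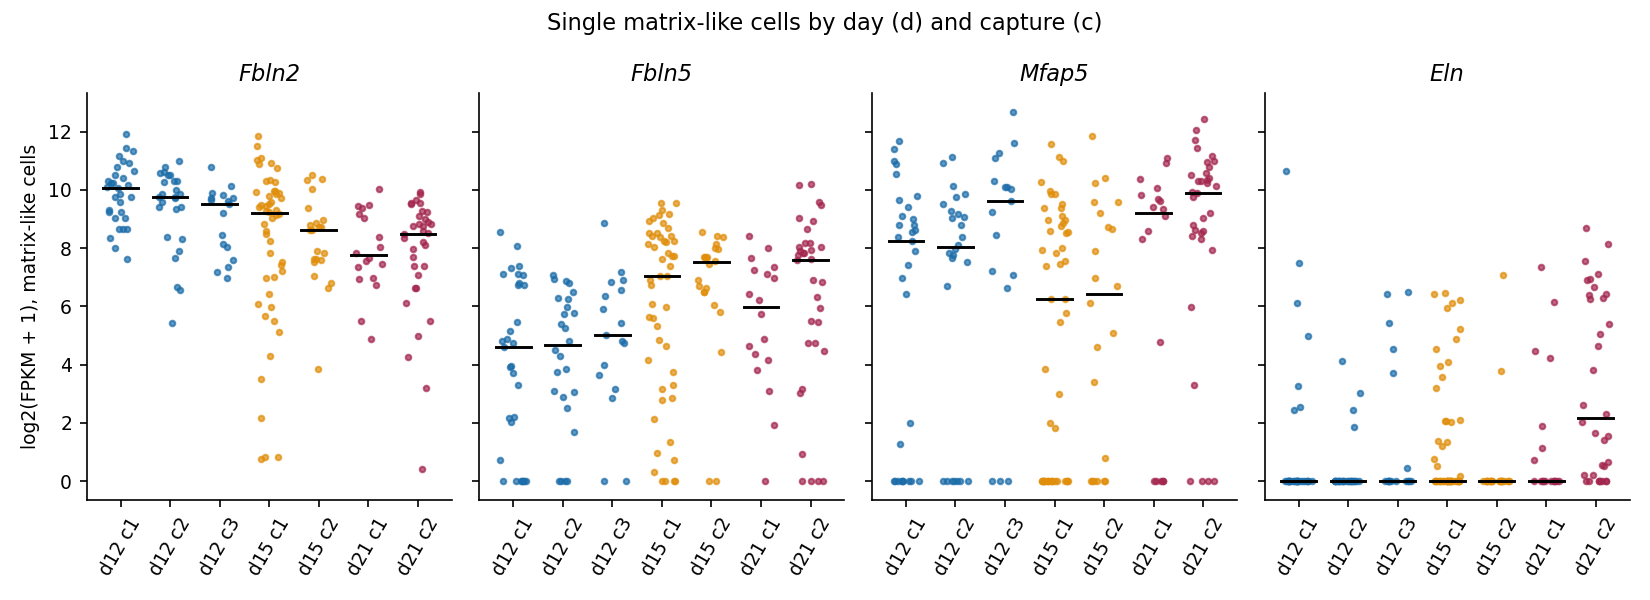
Single matrix-like cells for Fbln2, Fbln5, Mfap5 and Eln, with log2(FPKM + 1) on the y axis and the 7 captures on the x axis, named by day (d) and capture (c). Points are cells, coloured by day, and lines are medians. Medians of Fbln2 are lowest in the day 21 captures, those of Fbln5 are highest in both day 15 captures and the second day 21 capture, Mfap5 splits into cells at 0 and cells at high values, and the median of Eln is 0 in 6 of 7 captures.

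The second comparison set mural-like against matrix-like cells of the same capture, in the 5 captures with at least 3 cells of both kinds. All 10 fitted differences were below 0, though not all passed the test. Of the 10 genes, 5 were called lower (Fbln2, Fbln5, Mfap2, Mfap4 and Mfap5) and 0 higher by limma with the capture as a block, where 0.76% of 13823 genes were called lower and 1.71% in either direction. The median over the 10 genes was -2.28 in log2, beside -0.22 over all genes. In 8 of 10 genes the mural-like mean was lower in every capture, which held for 8.47% of all genes. Mural-like cells had a median of 5 of the 10 genes, and the 10 together took 0.102% to 0.186% of their FPKM. Their median depth was 1216720 fragments, beside 1459840 in matrix-like cells.

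Among the microfibril-associated genes, Mfap5 was at 0 in all 9 mural-like cells of the first day 12 capture and all 7 of the second, and at 174 FPKM in the third, 15.3 on day 15 and 275 on day 21. It was lower by 5.32 in log2 than in matrix-like cells (SE 1.06, adjusted p = 0.038 by limma, lower in 5 of 5 captures). Mfap4 means were 0.516, 0.0357, 166, 45.5 and 142 FPKM in the same order, with a difference of -4.79 (SE 1.02, adjusted p = 0.049, lower in 5 of 5). The means of both genes were thus near 0 in a pair of captures and well above it in the others. In those others Mfap5 was above 0 in 4 of 14, 4 of 18 and 4 of 8 cells, and Mfap4 in 4, 9 and 5. Mfap2 behaved more evenly, with 945, 702, 875, 647 and 557 FPKM and a difference of -1.40 (SE 0.19, adjusted p = 0.0057, lower in 5 of 5). It was above 0 in 51 of 57 mural-like cells and gave 43.6% to 79.6% of the sum of the 10 genes there.

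Of the fibulins, Fbln2 means in mural-like cells were 136, 419, 168, 67.4 and 162 FPKM, a difference of -2.13 (SE 0.38, adjusted p = 0.023 by limma, lower in 5 of 5 captures). Fbln5 means were 2.44, 1.91, 29.2, 26.3 and 26.6 FPKM, a difference of -2.82 (SE 0.58, adjusted p = 0.045, lower in 5 of 5). Fbln1 was lower by a similar amount but did not pass, with 19.8, 1.22, 16.4, 4.43 and 23.2 FPKM and a difference of -2.61 (SE 0.60, adjusted p = 0.065, lower in 5 of 5).

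The fibrillins, Emilin1 and Eln did not pass. Fbn1 was above 0 in 57 of 57 mural-like cells, with 54.7, 69.1, 86.9, 36.2 and 69.8 FPKM. At 10 FPKM or more it was in 68.4% of mural-like and 87.4% of matrix-like cells. The median over cells was 42.4 FPKM against 71.3 in matrix-like cells. In the day 15 capture the medians were 8.59 against 63.4, and on day 21 they were 19.4 against 99.7, for Fbn1. Its difference was -0.55 in log2 (SE 0.38, 95% interval -1.40 to 0.30, adjusted p = 0.567 by limma, lower in 5 of 5), an interval that reaches the difference of Mfap2. Fbn2 differed by -1.20 (SE 0.53, adjusted p = 0.334). Emilin1 differed by -2.44 (SE 0.71, adjusted p = 0.136) and was higher in mural-like cells of the second day 12 capture, at 98.6 against 61.5 FPKM. That mean came mostly from 2 of 7 cells, at 495 and 191 FPKM. Eln had no stable direction, with 0, 5.83, 51.6, 2.87 and 2.91 FPKM and a difference of -1.24 (SE 1.05, adjusted p = 0.636, lower in 3 of 5).

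The calls rested on all 5 captures. Without the first day 12 capture 1 of 10 was called, without the second 2, without the third 1, without the day 15 capture 1 and without the day 21 capture 4, and Mfap2 was called each time, with adjusted p from 0.007 to 0.033. With 1 variance for all levels, and without the filter on low values, 0 of 10 were called.

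**Figure D3:**
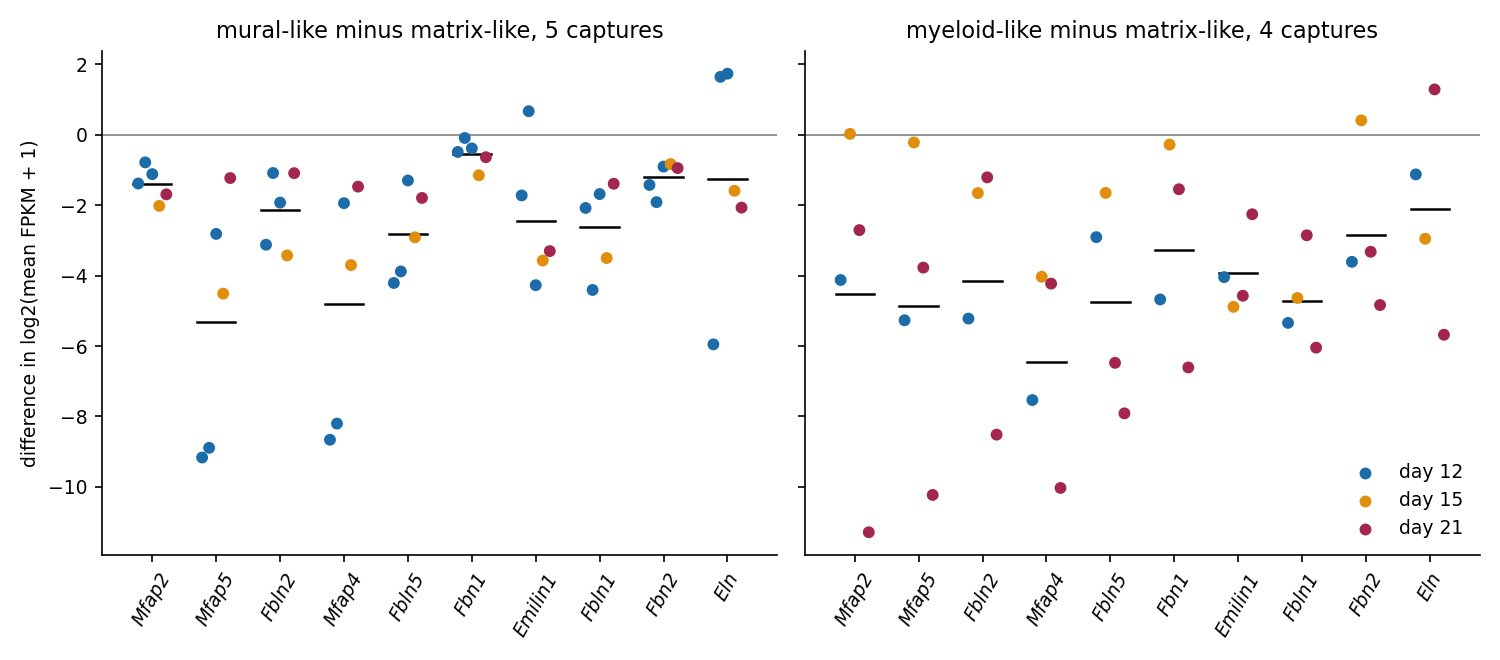
Difference in log2(mean FPKM + 1) from matrix-like cells of the same capture on the y axis, for mural-like cells in 5 captures (left) and myeloid-like cells in 4 (right), and genes on the x axis in order of their matrix-like level. Points are captures coloured by day, black lines are means and the grey line is 0. Fbn1 lies nearest to 0 in mural-like cells, Mfap5 and Mfap4 reach the lowest values there, and Eln has points on both sides of 0.

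Mural-like cells were uneven in collagen, since their rule sets no limit on Col1a1. Of the 57 cells, 19 held Col1a1 at 1000 FPKM or more and 38 held less, a split chosen after the values were seen. These groups were not tested against each other. Since matrix-like cells were chosen for high Col1a1, a split by Col1a1 sets the cells apart along the same gene. Several genes were near 0 in the 38 cells with low Col1a1. Fbln1 averaged 0.06 FPKM and was above 0 in 3 of 38 cells. Mfap5 averaged 1.07 FPKM, also in 3 of 38 cells, Fbln5 averaged 2.21 and Mfap4 averaged 7.53 FPKM. Fbn1 stayed at a mean of 65.7 FPKM, with a median of 35.1, and was above 0 in 38 of 38 cells. Mfap2 was still above 0 in 32 of 38 cells but lower, at a mean of 496 FPKM. Its mean was 1208 FPKM in the cells with high Col1a1 and 2180 in matrix-like cells. In the 19 cells with high Col1a1 the means were 256 FPKM for Mfap5, 210 for Mfap4, 55.04 for Fbln5, 35.8 for Fbln1 and 54.9 for Fbn1. A few cells carried the means of Mfap5 and Mfap4, since the median of the 19 cells was 0 for Mfap5 and 4.87 FPKM for Mfap4, beside 339 and 389 FPKM in matrix-like cells, and 1 cell held 1894 FPKM of Mfap4. Fbln2 averaged 73.2 FPKM in the low group and 329 in the high group. All 9 mural-like cells with Mfap5 at 100 FPKM or more lay in the high group. They held 6780 to 9772 detected genes, beside medians of 5181 in mural-like and 5808 in matrix-like cells. The authors excluded wells with more than 1 cell by microscopy, and whether RNA of a second cell was present was not tested.

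With the 38 low cells alone in the limma fit, an alternative added after seeing the data, 6 of 10 genes were called lower (Fbln1, Fbln2, Fbln5, Mfap2, Mfap4 and Mfap5) in the same 5 captures, where 3.5% of 13495 genes were called lower and 4.42% in either direction, and the difference of Fbn1 was -0.51 (SE 0.62, adjusted p = 0.658). Mfap5 then differed by -8.67 (SE 0.77, adjusted p = 0.000326) and Fbln1 by -5.89 (SE 0.74, adjusted p = 0.0021). The median of all genes shifted to -0.72 in that fit, whose cells were chosen by the gene that also defines matrix-like cells. Its calls and p-values describe the chosen cells and are no further support for a difference.

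**Figure D4:**
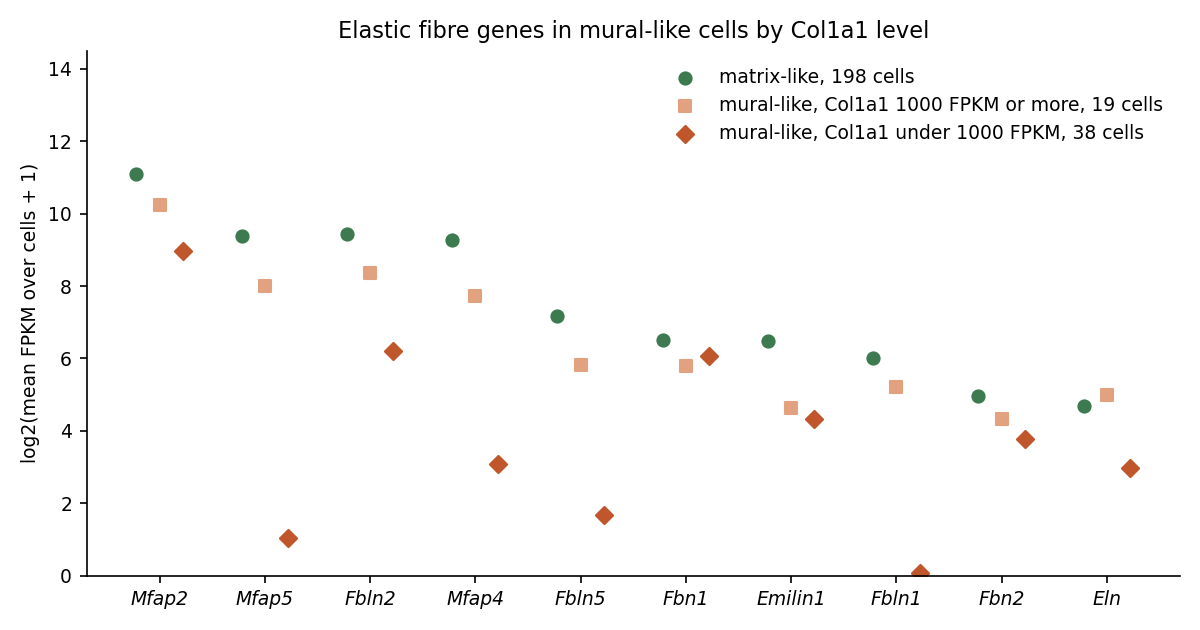
Mean over cells as log2(FPKM + 1) on the y axis for each gene on the x axis, in 198 matrix-like cells (circles), 19 mural-like cells with Col1a1 at 1000 FPKM or more (squares) and 38 with less (diamonds). The diamonds of Fbln1, Mfap5, Fbln5 and Mfap4 lie far below the circles, while those of Fbn1 lie close to them.

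The third comparison set myeloid-like against matrix-like cells of the same capture. In the 4 captures with at least 3 cells of both kinds, 5 of 10 genes were called lower than in matrix-like cells by limma with the capture as a block (Fbln1, Fbln5, Mfap4, Mfap5 and Emilin1) and 0 higher, where 6.59% of 13059 genes were called, 4.9% lower. The median over the 10 genes was -4.34 in log2, beside -0.998 over all genes. The mean was lower in every capture for 7 of 10 genes, against 26.4% of all genes. Myeloid-like cells were deeper than the others, at a median of 2107040 fragments, and had a median of 2.5 of the 10 genes. Their summed matrix fibroblast markers ran from 99.3 to 15689 FPKM per capture.

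Mfap4 had the largest difference, with 0.646, 29.9, 20.2 and 0 FPKM in myeloid-like cells of the second day 12, second day 15, first and second day 21 captures. That was -6.45 in log2 (SE 1.17, adjusted p = 0.015 by limma, lower in 4 of 4). Fbln1 means were 0.16, 1.77, 7.77 and 0 FPKM, a difference of -4.72 (SE 1.04, adjusted p = 0.030, lower in 4 of 4). Mfap2 means were 68.4, 1988, 275 and 0 FPKM, and its difference of -4.52 (SE 1.33, adjusted p = 0.061, lower in 3 of 4) did not pass, and ran from -6.04 without the day 15 capture to -2.27 without the second day 21 capture. The day 15 capture was level with matrix-like cells for Mfap2, at 1988 against 1949 FPKM, and held 4 myeloid-like cells.

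A few cells carried nearly all of these values. Of the 26 myeloid-like cells, 4 held Col1a1 at 1000 FPKM or more, and these averaged 1482 FPKM of Mfap2, 393 of Fbln2, 471 of Mfap5 and 104 of Fbn1. The other 22 averaged 0.07 FPKM of Fbn1, 1.30 of Fbln2 and 0.02 of Fbln1, and Mfap5 was at 0 in all of them. Mfap2 was above 0 in 1 of the 22, a day 15 cell with 4153 FPKM. Emilin1 differed from the rest, being above 0 in 17 of 22 cells with low Col1a1, though at a median of 1.14 FPKM. At 10 FPKM or more it was found in 7.69% of the 26 cells. Those were 1 cell of the first day 12 capture, at 83.6 FPKM, and 1 of the second day 21 capture, at 55.7 FPKM.

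Without the 4 cells, an alternative added after seeing the data, 3 captures remained, since the day 15 capture kept only 2 cells. Of those 2 cells, 1 held 4153 FPKM of Mfap2. In the fit, 8 of 10 genes were called lower, all but Eln and Emilin1. Of 12879 genes, 9.02% were called lower and 10.6% in either direction. Mfap2 was at -10.78 (SE 1.21, adjusted p = 0.0064 by limma), with a value of 0 in every remaining myeloid-like cell of these captures. The median of all genes was -1.23 in that fit, whose cells were chosen by the gene that also defines matrix-like cells. Its calls and p-values too describe the chosen cells and are no further support for a difference. With all cells and 1 capture left out, the count of called genes was 0 without the second day 12 capture, 3 without the day 15 capture, and 1 without either day 21 capture. It was 0 without the filter on low values, 1 with a pseudocount of 10 and 2 without the cell filter.

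**Figure D5:**
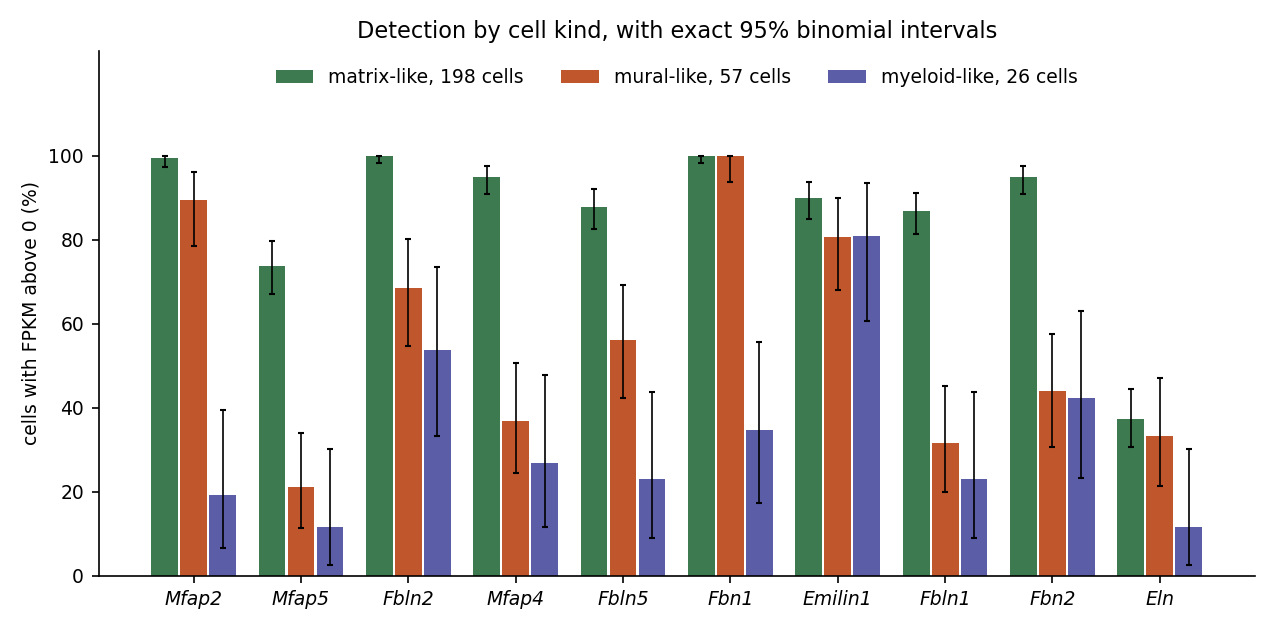
Share of cells with FPKM above 0, in percent on the y axis, for each gene on the x axis in 198 matrix-like, 57 mural-like and 26 myeloid-like cells, with exact 95% binomial intervals as error bars. Fbn1 is at 100% in matrix-like and mural-like cells and at 34.6% in myeloid-like cells, Emilin1 is near 80% or above in all 3 kinds, and Eln is below 40% in each.

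Partners of elastic fibres outside the 10 genes were followed in 7 lists of 43 genes. Between days, 0 of the 38 tested were called in any of the 3 comparisons by limma, whose medians lay between -0.05 and 0.13 in log2. In mural-like cells 6 of 35 tested were lower and 0 higher, with a median of -0.93 beside -0.22 over all genes, of which 0.76% were called lower and 1.71% in either direction. Among the crosslinking enzymes, 2 of 5 were lower, Lox by -3.13 and Loxl1, which acts on elastin with Fbln5, by -2.63 (adjusted p = 0.045 and 0.027 by limma). Loxl1 capture means were 72.7 to 127 FPKM in matrix-like and 6.96 to 29.5 FPKM in mural-like cells. Of the further fibulins and assembly proteins, 1 of 5 was lower, Efemp1, which encodes fibulin-3, by -3.44 (adjusted p = 0.039). Of the proteases able to cut elastic fibre proteins, 3 of 7 were lower, Mmp2, Mmp14 and Ctsk. None of the 6 latent TGF-beta binding proteins and ligands, 5 fibrillin-binding ADAMTS genes, 1 emilin family gene and 6 receptors tested was called.

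In myeloid-like cells 7 of 35 of these partners were lower and 1 was higher, with a median of -2.31 beside -0.998 over all genes, of which 4.9% were called lower and 6.59% in either direction. The higher gene was Ctss, a lysosomal protease that can degrade elastin, at 1163 to 2991 FPKM against 0 to 26.3 in matrix-like cells. The lower ones were Loxl2, Loxl3 and Loxl4 of the 5 crosslinking enzymes, Hmcn1 of the 5 assembly genes and Tgfb2 of 7 ligands and binding proteins. Adamtsl5 of 4 ADAMTS genes and Mmp2 of 7 proteases were lower too, with 0 of 1 emilin family gene and 0 of 6 receptors. Loxl4, Adamtsl5 and Tgfb2 were low in matrix-like captures as well, at 0.85 to 20.9, 3.16 to 27.1 and 1.77 to 59.6 FPKM. Lox and Loxl1 were not called. Their median capture means were 111 and 104 FPKM in matrix-like and 17.9 and 6.77 in myeloid-like cells.

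From cell to cell the 10 genes did not move as a block. Spearman correlations were taken across the 17 to 50 matrix-like cells of each capture and averaged over the 7 captures. Cells of a capture share a chip, pooled tissue and a range of depths, and the coefficients are a description. The highest mean between any pair of the 10 genes was 0.25, for Fbn2 and Mfap5 (-0.26 to 0.57 over captures), and the lowest was -0.18, for Fbn1 and Mfap2. Fbln2 and Fbln5 had -0.16. Each gene was ranked against 5961 protein-coding genes, so the first ranks are high in part by selection. The level that first ranks reach without any likeness was not tested. Mfap5 was most like Apod (0.49, from 0.33 to 0.75 over captures), Ptn (0.42) and Ssc5d (0.41). Fbln5 was most like Sema3a (0.44), Igsf10 (0.40) and Efna5 (0.40), and had 0.32 with Crabp1, a retinoic acid binding protein (0.04 to 0.45). Mfap2 was most like Sparc (0.40), which encodes a collagen-binding matricellular protein, and Mfap4 most like Adh1 (0.37). The genes ranked first for the others were Aebp1 for Fbln2 (0.36), Adam19 for Fbn2 (0.36) and Plpp3 for Eln (0.32). Col16a1 was first for Fbln1 (0.30), Atp8b2 for Fbn1 (0.30) and Adamtsl1 for Emilin1 (0.30). In their lowest capture these pairs had only 0.004 (Aebp1) to 0.09 (Plpp3). Correlation with genes detected per cell reached 0.25 for Mfap5 and -0.23 for Mfap2, and with Col1a1, on which the kinds were divided, it lay between 0.04 and 0.26.

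Reads of overlapping genes bear on 4 of the 10. Gm30003 is antisense to Eln, Gm9913 lies on the other strand in Fbn1, Gm26507 in Fbn2 and Mapk7 beside Mfap4, and the library kit does not mark strand, so reads of each pair cannot be told apart where they overlap.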

How the data were processed

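The authors aligned paired reads with Bowtie 1.0.0 to mm10 and GENCODE M13 and quantified genes with RSEM, and the deposited values are FPKM per gene and cell. No counts or totals were in the tables used, and all columns were mapped to a cell (0 left over). The descriptions of the 40 cells of the third day 12 capture name the data of the second capture. Those cells were assigned by their titles and by the number of cells. Wells with more than 1 cell had been excluded by the authors by microscopy, and no doublet caller was run. Gene names and positions came from GENCODE M21, with 224 of 50600 identifiers unmatched. Fragments per cell were estimated from the spacing of FPKM values in genes with 1 transcript (1000 bp or longer, assuming fragments of 300 bp) and tested on simulated data. The study filtered on aligned reads and kept slightly fewer cells than the 292 kept here.

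The capture is the replicate. Capture means of a kind were compared as log2(mean FPKM + 1), which understates changes of low genes, over the genes whose mean reached 1 FPKM, by limma 3.58.1 in R 4.3.3 with a variance trend, Benjamini-Hochberg adjustment and a threshold of 0.05, checked on simulated data. Mural-like and myeloid-like fits had the capture as a block. Named genes are the 10 members, at most 4 called genes by size in each of 7 lists, and the 3 most alike in cells. Members and lists were chosen with earlier results of these data known. Alternatives were pseudocounts of 0.1 and 10, no filter on low values, means of logs, rescaled cells, other cell filters, 5 cells per capture, halved and doubled kind limits, no variance trend, the block, other limits of detection and each capture left out. Python 3.11.15 with pandas 2.3.3, numpy 2.4.6, scipy 1.17.1 and matplotlib 3.10.9 was used.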

Additional observations from a re-analysis of the deposited data

Results flagged for a closer look

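Eln in myeloid-like cells of the first day 21 capture stood apart from the other 3 captures, at 5.32 on the scale of log2(mean FPKM + 1). The value came from 1 of its 5 cells, with 195 FPKM of Eln and 6201 FPKM of Col1a1. This was 1 flag among 50 groups of captures examined, where chance gives about 1 in 20.

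The 11 cells that met none of the 3 marker rules entered no comparison, yet 5 genes were above 0 in more of them than the 27.3% that a count of 0 allows, by the lower end of the exact interval. Fbln2 and Emilin1 were each detected in 90.9%, Fbn1 in 81.8%, and Fbln5 and Mfap2 each in 72.7%. Mfap2 averaged 1602 FPKM in them and Fbln2 486 FPKM.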

How the results depend on the processing

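Of all genes, 1 was called between days 12 and 21, and 0 with a pseudocount of 0.1, no filter on low values, rescaled cells, no depth limit or the replicate block, 3 with doubled kind limits and 70 with means of log2 values. Means of logs gave 28 between days 12 and 15, and a pseudocount of 10 gave 1 between days 15 and 21. The members called stayed at 0 throughout, and without 1 capture the count of all genes was 0 in each day comparison. Capture numbers are not known to pair captures. Deviations of same-numbered captures from their day mean correlated at -0.007 to 0.025. With 2 captures each on days 15 and 21 the deviations of a day mirror each other, so these values cannot decide it. With the number as replicate block 0 members were called.

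For mural-like cells, 236 genes were called, and 19 without the filter, 657 with means of logs, 90 without the variance trend, 596 with low Col1a1 and 102 to 228 without 1 capture. Of the members, 5 were called, and 2 with a pseudocount of 0.1 or with no replicate block, 0 without the filter or the trend, 8 with means of logs and 1 to 4 without 1 capture. For myeloid-like cells, 861 genes were called, and 183 with a pseudocount of 10, 31 without the filter, 1365 with rescaled cells, 485 without the cell filter, 154 with 5 cells per capture, 1360 with low Col1a1 and 108 to 340 without 1 capture. Of the members, 5 were called, and 2 with a pseudocount of 0.1 or no cell filter, 1 with a pseudocount of 10 or 5 cells per capture, 0 without the filter, 8 with means of logs or low Col1a1 and 0 to 3 without 1 capture. The cause was not tested. Without the filter 25865 and 24111 genes were tested in place of 13823 and 13059, and 5 cells per capture leaves 2 captures. Rescaling moved the median of all genes from -0.22 to -0.32 and from -0.998 to -1.20 and turned no member in these fits.

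No called member changed direction. Uncalled ones did. With means of logs, Fbln1 was -0.32 (days 12 to 15) and 0.49 (15 to 21), Fbn2 -0.14 (12 to 21), Mfap2 0.28 and Emilin1 -0.064 (15 to 21). Without the cell filter, Fbln1 was -0.0016 (12 to 15) and -0.064 (12 to 21), Fbn2 0.083 and Mfap2 0.18 (15 to 21). From day 15 to 21, doubled limits gave Fbn2 0.015 and Fbln1 0.011, halved limits Emilin1 -0.0037, no depth limit Emilin1 -0.011 and rescaling Fbln1 0.097. With the replicate block Emilin1 was 0.24 (12 to 15) and 0.26 (12 to 21). With 5 cells per capture Eln was 0.084 in myeloid-like cells. Without 1 capture, between days 12 and 15, Eln ran from -1.72 to 0.70, Fbn2 from -0.33 to 1.06, Fbln1 from -0.11 to 0.34, Mfap4 from -0.18 to 0.35 and Emilin1 from -0.69 to 0.33. Between days 12 and 21, Eln ran from -0.068 to 2.35, Fbln1 from -0.12 to 0.33, Mfap2 from -0.028 to 0.49, Mfap4 from -0.31 to 1.09, Mfap5 from -0.10 to 0.79 and Emilin1 from -0.44 to 0.26. Between days 15 and 21, Fbn2 ran from -0.71 to 0.68, Fbln1 from -0.086 to 0.075, Fbln5 from -0.96 to 0.42, Mfap2 from -0.33 to 0.14, Mfap4 from -0.48 to 0.92 and Emilin1 from -0.49 to 0.53.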
